A study of Mus musculus with 46 samples.

Results

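Acute phase genes encode plasma proteins that the liver makes in larger or smaller amounts during inflammation. The transcripts described here are those of 10 such genes, chosen by symbol: Lcn2, Saa1, Saa2, Saa3, Orm1, Orm2, Orm3, Hp, Hpx and Apcs. All 10 were found, once each, among the 25494 rows of the deposited count table, and all 10 passed the filter on low counts, with a lowest count of 17 in any library (Lcn2 in CD mouse 4). Livers came from male C57BL/6 mice that were fed, after acclimation on chow from 5 weeks of age, for 20 weeks either a lipid-rich diet (LD, labelled a high fat diet, with 60% of energy as fat, 20% as carbohydrate and 20% as protein) or a carbohydrate-rich diet (CD, labelled a low fat diet, with 10% as fat, 70% as carbohydrate and 20% as protein). Both diets are defined diets, no group analysed here stayed on chow, and the CD mice serve as the reference. Whole liver was profiled by RNA-seq (5 mice per diet), by ChIP-seq for H3K27ac, a histone mark of active promoters and enhancers (3 samples per diet), by ChIP-seq for the liver transcription factors Hnf4α and C/EBPα (2 samples per diet each), and by promoter capture Hi-C (PCHi-C), which maps the contacts of promoter fragments (2 samples per diet, pooled by the authors before scoring).

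During the acute phase response, cytokines released by macrophages, of which interleukin-6 and interleukin-1 are the best known, act on hepatocytes through the transcription factors STAT3, NF-kB and the C/EBP family. Positive acute phase genes such as the serum amyloid A genes (Saa), the orosomucoid genes (Orm) and haptoglobin (Hp) then rise, and negative acute phase genes such as albumin and transthyretin fall. Saa1 and Saa2 encode apolipoproteins carried on high density lipoprotein, and Saa3 is another member of that family, known also in macrophages and fat. Lcn2 encodes lipocalin 2, which binds bacterial iron carriers and is made by hepatocytes and neutrophils. The orosomucoids are acidic plasma glycoproteins that bind drugs and lipids, Hp and Hpx bind free haemoglobin and free haem, and Apcs encodes serum amyloid P, the main acute phase pentraxin of mice.

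Saa1 with Saa2, and the 3 Orm genes, are near copies of each other, which bears on how their transcripts can be told apart. Saa1 (chr7:53995869-53998350, minus strand) and Saa2 (chr7:54007203-54009684, plus strand) face away from each other on mm9, with Saa3 (chr7:53967368-53971046, minus strand) nearby. Orm1 (chr4:63005590-63009197), Orm3 (chr4:63017196-63020545) and Orm2 (chr4:63023483-63026911) follow each other on the plus strand. Their Entrez identifiers are 20208, 20209 and 20210 for Saa1, Saa2 and Saa3, and 18405, 18406 and 18407 for Orm1, Orm2 and Orm3. The coding sequences of Saa1 and Saa2 were identical at 95.1% of aligned positions, and those of Orm1 and Orm2 at 89.9%, Orm2 and Orm3 at 88.0% and Orm1 and Orm3 at 86.1%. Of the stretches as long as a read (76 bases) in the Orm1 and Orm2 transcripts, 13.6% also occur in another gene, against 0.189% for Saa1, 0.187% for Saa2 and 0% for each of the other members, so that reads of Orm1 and Orm2 are the ones least certain to be assigned.

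The 200 bases before the annotated start are shown for Saa1, Saa2 and the Orm genes, which are near copies of each other, and for Lcn2, the member with the largest response. They were read from the NCBIM37 genome, which is mm9, on the strand of each gene, and capitals mark matches to either of a pair of motifs, the C/EBP motif TTGCNNAA and the NF-kB motif (GGG, any 5 bases, then CC), searched on both strands. The windows are chr2:32243260-32243459 for Lcn2, chr7:53998351-53998550 for Saa1, chr7:54007003-54007202 for Saa2, chr4:63005390-63005589 for Orm1, chr4:63023283-63023482 for Orm2 and chr4:63016996-63017195 for Orm3.
Lcn2: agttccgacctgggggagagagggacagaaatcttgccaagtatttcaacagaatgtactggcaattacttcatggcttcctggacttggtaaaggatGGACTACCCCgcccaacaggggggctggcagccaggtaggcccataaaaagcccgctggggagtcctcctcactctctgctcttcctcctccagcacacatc
Saa1: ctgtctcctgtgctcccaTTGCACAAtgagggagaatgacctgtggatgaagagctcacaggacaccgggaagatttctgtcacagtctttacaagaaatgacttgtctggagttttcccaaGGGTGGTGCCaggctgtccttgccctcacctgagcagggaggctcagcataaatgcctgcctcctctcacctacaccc
Saa2: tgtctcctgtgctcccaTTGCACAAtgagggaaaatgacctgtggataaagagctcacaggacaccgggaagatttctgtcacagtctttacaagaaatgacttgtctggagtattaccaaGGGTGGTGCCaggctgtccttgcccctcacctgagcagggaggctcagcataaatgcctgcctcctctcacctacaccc
Orm1: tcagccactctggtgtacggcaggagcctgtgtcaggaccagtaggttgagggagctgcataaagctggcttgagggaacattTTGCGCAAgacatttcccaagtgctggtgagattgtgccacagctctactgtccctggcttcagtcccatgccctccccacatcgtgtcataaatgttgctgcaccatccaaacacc
Orm2: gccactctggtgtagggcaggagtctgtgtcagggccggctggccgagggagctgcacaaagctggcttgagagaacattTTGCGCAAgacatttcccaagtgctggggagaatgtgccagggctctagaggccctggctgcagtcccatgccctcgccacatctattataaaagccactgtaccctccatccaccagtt
Orm3: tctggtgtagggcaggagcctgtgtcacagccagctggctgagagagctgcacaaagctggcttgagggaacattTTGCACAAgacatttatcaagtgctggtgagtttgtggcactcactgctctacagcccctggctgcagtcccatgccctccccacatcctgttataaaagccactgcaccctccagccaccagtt
The Saa1 and Saa2 windows were identical at 97.0% of aligned positions, and the Orm1 and Orm2 windows at 81.9%. All 3 Orm genes held the C/EBP letters, at -117 to -110 in Orm1, -120 to -113 in Orm2 and -125 to -118 in Orm3, counted back from the annotated start. Of the 10 members, 7 held the C/EBP motif in this window (Saa1, Saa2, Saa3, Orm1, Orm2, Orm3 and Hpx), against 6.8% of 25331 promoters of the count table. Since Saa1 with Saa2, and the 3 Orm genes, are near copies, these are not 7 independent promoters. The NF-kB letters were found in 4 members (Lcn2, Saa1, Saa2 and Hp) and in 45.3% of all promoters. The STAT motif TTCNNNGAA was found in 0 of the members and 5.32% of promoters, and the HNF4 motif CAAAGTCCA in 0 of the members and 0.34% of promoters. No match overlapped a match to another motif in the windows shown.

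Of the 10 members, 8 rose on LD and 0 fell (edgeR quasi-likelihood test, adjusted p below 0.05 and a fold change above 1.2). Across all 13494 rows tested, 13.8% were called higher and 11.1% lower, so that 24.9% were called at all. The median log2 fold change of the members was 2.30, against -0.00 over all rows tested. Lcn2, Saa1, Saa2, Orm2 and Orm3 rose between 7.26 and 19.99 times, Saa3 and Hp between 2.25 and 3.36 times, and Hpx by 1.45 times, whereas Orm1 and Apcs were not called. In each of the 8 genes called, every LD mouse was above every CD mouse, a separation in either direction that 18.5% of all rows tested showed. Library totals ran from 31707963 to 39012699 counts. When log2(TPM + 1) was tested with limma, 2227 rows were called higher and 740 lower in place of 1859 and 1498, and the same 8 members were called.

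**Figure D1:**
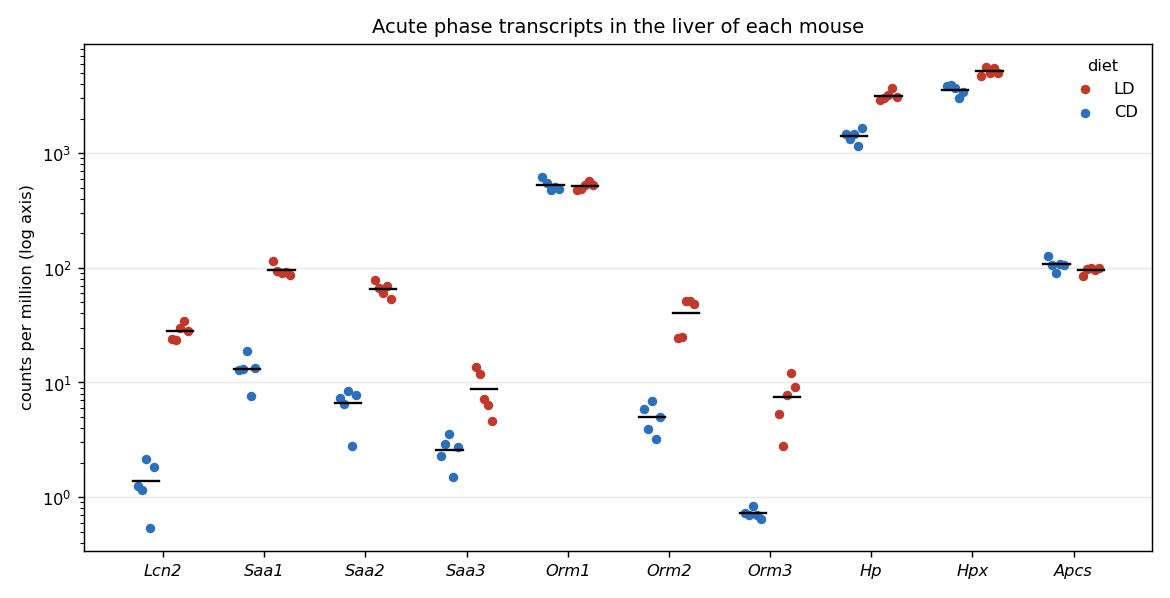
CPM (log axis) of the 10 acute phase transcripts in each of 5 LD and 5 CD livers; points are mice in order of replicate number and bars are diet means. The LD and CD points of Orm1 and of Apcs overlap, and those of the other 8 genes do not.

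Lcn2 (Entrez 16819, chr2:32240157-32243259, minus strand) showed the largest response. Its level was 24.1, 23.2, 30.0, 34.1 and 28.2 CPM (counts scaled to the size of each library) in LD mice 1 to 5 and 1.24, 1.15, 2.15, 0.540 and 1.83 CPM in CD mice 1 to 5. The lowest LD mouse was above the highest CD mouse, and the spread in relative terms was larger among the CD mice. The log2 fold change was 4.32 with a standard error of 0.26 (19.99 times, edgeR adjusted p = 7.15e-06), the 17th largest of the 13494 rows tested.

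Saa1 and Saa2 rose together. Saa1 was at 115, 93.5, 89.97, 92.8 and 85.7 CPM in the LD mice and at 12.9, 13.2, 18.7, 7.59 and 13.2 CPM in the CD mice, a log2 fold change of 2.86 with a standard error of 0.19 (edgeR adjusted p = 8.57e-06). Saa2 was at 79.0, 66, 60.8, 69.2 and 52.9 CPM in the LD mice and at 7.39, 6.5, 8.41, 2.79 and 7.71 CPM in the CD mice, a log2 fold change of 3.32 with a standard error of 0.24 (edgeR adjusted p = 2.01e-05). CD mouse 4 was the lowest of its diet for both genes. Since reads of the copies may be exchanged, their counts were also summed, and the sum rose by 3.03 on the log2 scale with a standard error of 0.21 (8.17 times, edgeR adjusted p = 1.24e-05).

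Saa3 rose less and varied more between mice. Its level was 13.6, 11.95, 7.20, 6.31 and 4.58 CPM in the LD mice and 2.29, 2.92, 3.52, 1.49 and 2.74 CPM in the CD mice. LD mice 1 and 2 were the highest, whereas LD mouse 5 was closest to the CD mice. The log2 fold change was 1.75 with a standard error of 0.31 (3.36 times, edgeR adjusted p = 0.00220).

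The orosomucoid copies parted. Orm1, the most abundant of them, was at 474, 483, 526, 568 and 525 CPM in the LD mice and at 613, 545, 473, 508 and 487 CPM in the CD mice, and its log2 fold change of -0.03 had a standard error of 0.08 (edgeR adjusted p = 0.843). Orm2 was at 24.5, 24.9, 50.8, 51.8 and 48.4 CPM in the LD mice and at 5.83, 3.97, 6.93, 3.24 and 5.04 CPM in the CD mice, a log2 fold change of 3.0 with a standard error of 0.30 (edgeR adjusted p = 0.000143). Within LD, mice 1 and 2 were lower in Orm2 than the other mice, the reverse of their place in Saa3. Orm3 was at 5.36, 2.79, 7.76, 12.01 and 9.20 CPM in the LD mice and at 0.733, 0.705, 0.838, 0.699 and 0.640 CPM in the CD mice, a log2 fold change of 3.35 with a standard error of 0.36 (edgeR adjusted p = 8.43e-05).

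Per transcript length, Orm1 supplied from 98.4% to 99.2% of the summed Orm TPM in the CD mice and from 89.9% to 94.6% in the LD mice. The share of Orm2 was between 0.637% and 1.45% on CD and between 4.89% and 8.74% on LD. Summed over the 3 copies, Orm TPM was 1371 ± 146 on LD and 1222 ± 99.6 on CD (SD, n = 5 each). The summed Orm counts were not called (log2 fold change 0.08 with a standard error of 0.09, edgeR adjusted p = 0.521). The increases of Orm2 and Orm3 were thus increases of minor copies, beside a major copy that was not called.

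Hp and Hpx, the abundant scavengers of haemoglobin and haem, rose by smaller factors from far higher levels. Hp (Entrez 15439, chr8:112099028-112103072, minus strand) was at 2884, 3005, 3177, 3720 and 3093 CPM in the LD mice and at 1466, 1315, 1480, 1156 and 1641 CPM in the CD mice, a log2 fold change of 1.17 with a standard error of 0.10 (edgeR adjusted p = 1.02e-05). Hpx (Entrez 15458, chr7:112740125-112748630, minus strand) was at 4744, 5626, 4960, 5551 and 5021 CPM in the LD mice and at 3828, 3945, 3689, 3001 and 3391 CPM in the CD mice, a log2 fold change of 0.54 with a standard error of 0.09 (edgeR adjusted p = 0.000841). The lowest LD value was above the highest CD value for both genes.

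Apcs (Entrez 20219, chr1:174824092-174825185, minus strand) was not called. It was at 84.1, 98.5, 100.3, 96.2 and 99.6 CPM in the LD mice and at 127.5, 105, 90.4, 107 and 107 CPM in the CD mice. The diets overlapped, and the log2 fold change of -0.17 had a standard error of 0.09 (edgeR adjusted p = 0.17).

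The order of transcript levels per length (TPM as deposited) changed with diet. On CD the order was Hpx (4330), Hp (1882), Orm1 (1209), Apcs (196), Saa1 (38.8), Saa2 (19.3), Orm2 (11.6), Saa3 (8.78), Lcn2 (2.91) and Orm3 (1.68). On LD it was Hpx (6628), Hp (4469), Orm1 (1255), Saa1 (298), Saa2 (203), Apcs (185), Orm2 (98.4), Lcn2 (62.0), Saa3 (31.0) and Orm3 (18.2). Saa1 and Saa2 thus moved from below to level with or above Apcs, although the ranges of Saa2 and Apcs overlapped on LD. Other neighbours whose ranges overlapped were Orm2 with Lcn2 and Saa3 with Orm3 on LD, and Saa1 with Saa2, Saa2 with Orm2, Orm2 with Saa3 and Lcn2 with Orm3 on CD.

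Some pairs of members varied together among mice of the same diet and others did not. After removal of the diet means, Pearson's r of log2 CPM over the 10 mice, which share their libraries for all genes, was 0.93 between Saa1 and Saa2, 0.85 between Lcn2 and Hp, 0.83 between Lcn2 and Saa2, 0.80 between Lcn2 and Saa1, 0.77 between Orm1 and Apcs, and 0.74 between Orm2 and Orm3 and between Saa1 and Saa3. Saa3 instead had r = -0.59 with Orm3 and r = -0.33 with Orm2. CD mouse 4 was the lowest CD mouse for 7 of the 10 members and CD mouse 3 the highest for 6. Among the LD mice, mouse 1 was the lowest for 5 members and the highest for 3.

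**Figure D2:**
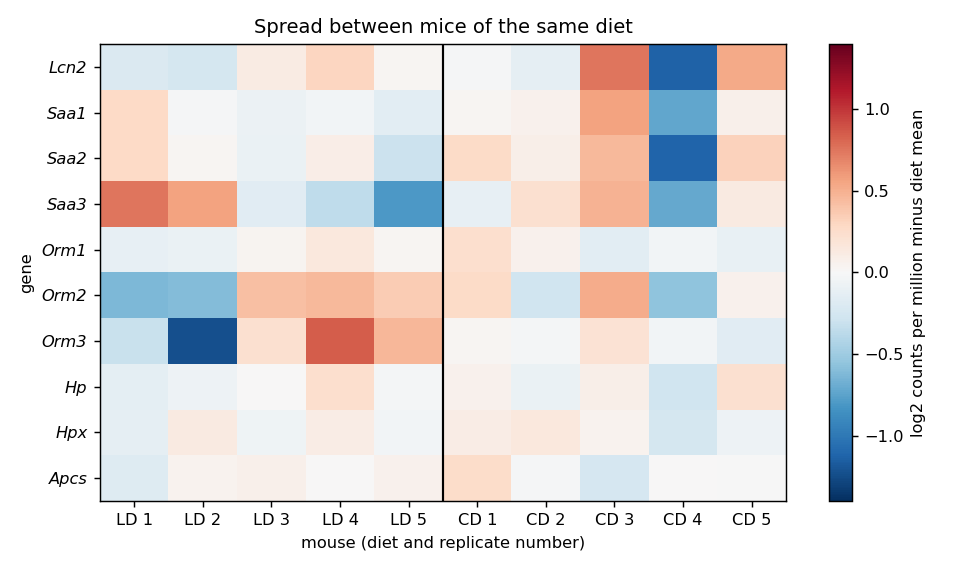
Log2 CPM of each member minus the mean of its diet, for the 5 LD and 5 CD mice (columns) and 10 genes (rows); red is above and blue below the diet mean. LD mice 1 and 2 are red for Saa3 and blue for Orm2 and Orm3, and CD mouse 4 is blue for Lcn2, Saa1, Saa2, Saa3 and Orm2.

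The rows whose deviations were most like those of a member were, for Lcn2, Nubpl (r = 0.96), Tmco3 (0.95) and Dhx58 (0.94), and for Saa1, Mterf2 (0.96), Ppp1r3b (0.95) and Hcrtr2 (0.94). For Saa2 they were Fam122b (0.94), Mterf2 (0.93) and Saa1 (0.93), the only case in which a member was itself among the nearest. They were Gm12718 (0.96) and Ncam2 (0.94) for Saa3, Lrrfip2 (0.94), Znrd1 (0.93) and Edem2 (0.93) for Orm1, Acad12 (0.98), Cryz (0.97) and Lgals1 (0.96) for Orm2, and Sap30l (0.97), Hsd17b12 (0.97) and Fth1 (0.95) for Orm3. For Hp they were Msrb2 (0.95), Bst2 (0.94) and Fggy (0.94), for Hpx Pspc1 (0.95), Nt5dc2 (0.94) and Jrk (0.93), and for Apcs Fbxo4 (0.99), Ppia (0.98) and Dlgap5 (0.97). These are the largest values per member among all rows tested, over 10 mice, with 3 given for each member except Saa3.

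Cell type markers were measured beside these changes, because in bulk liver a change in the number of cells of a type cannot be told apart from a change in RNA per cell. All 7 hepatocyte markers were detected, with a summed level of 81970 to 102282 CPM on LD and 90721 to 104933 CPM on CD. LD mouse 2 stood apart in neutrophil genes: S100a8 had 1047 counts there against 12 to 72 in the other libraries, Ltf 560 against 0 to 6, Ngp 468 against 0 to 5 and Camp 301 against 0 to 1. Over the 10 neutrophil markers the summed level was 4.59 to 103 CPM on LD and 2.10 to 3.78 CPM on CD, with 6.37 CPM as the highest value outside LD mouse 2. Lcn2, which neutrophils also express, was lowest among the LD mice in that mouse. Without LD mouse 2, the same 8 members were called and the log2 fold change of Lcn2 was 4.38 (edgeR adjusted p = 1.02e-05). Macrophage markers summed to 331 to 1015 CPM on LD and 327 to 631 CPM on CD, with 2 of 8 (Cd68 and Itgam) called higher and 0 lower, where 13.8% of all rows were called higher and 11.1% lower. Among the adipocyte markers Lep and Plin1 had 0 counts in every library, and Adipoq and Retn had 9 and 5 counts over all 10, so that only Lpl passed the filter, and it was called higher (log2 fold change 0.91, standard error 0.21, edgeR adjusted p = 0.00887). S100a8, 1 of 4 neutrophil markers tested, was called higher as well (3.67, standard error 1.13, edgeR adjusted p = 0.0406). Without LD mouse 2 the log2 fold change of S100a8 was 1.65 (3.14 times in place of 12.8, edgeR adjusted p = 0.000647), and the call was lost without any 1 of the CD mice. A single marker each was called higher among those of lymphocytes (Cd8a, with Cd4 lower), endothelial cells (Lyve1), stellate cells (Col1a1) and cholangiocytes (Spp1), and 2 hepatocyte markers (Cps1 and Tat) were called lower. With 1 mouse left out, the calls of Itgam (LD mouse 3 or any CD mouse), Cd8a (CD mouse 2) and Tat (LD mouse 3, 4 or 5 or CD mouse 1, 2 or 3) were lost. The part of these cells in the results was not tested.

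Other acute phase genes were mixed. Of 20 further genes listed with the acute phase, all tested, 7 rose on LD, 5 fell and 8 were not called (13.8% and 11.1% of all rows tested were called higher and lower), and their median log2 fold change was 0.09. Those with the smallest adjusted p were Il1rn, the interleukin-1 receptor antagonist (log2 fold change 1.84, standard error 0.13, edgeR adjusted p = 7.15e-06), Steap4, a metalloreductase (0.82, standard error 0.07, edgeR adjusted p = 8.57e-06), and the fibrinogen chains Fgg (-0.71, standard error 0.08, edgeR adjusted p = 7.36e-05) and Fgb (-0.76, standard error 0.09, edgeR adjusted p = 8.43e-05). The third fibrinogen chain, Fga, also fell, as did complement C3 and hepcidin (Hamp), whose reads may be shared with its copy Hamp2. The genes that rose were Il1rn, Steap4, Mt2, Mt1, Lbp, Serpina3n and Saa4, of which Saa4, a serum amyloid A that the liver makes constitutively, was no longer called when any of LD mice 1 to 4 or CD mice 1, 2, 4 or 5 was left out.

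Of 10 negative acute phase genes, 2 fell, 0 rose and 8 were not called, where 11.1% of all rows tested were called lower and 13.8% higher, with a median log2 fold change of -0.09. Igf1, a growth hormone target, fell by 0.66 on the log2 scale (standard error 0.11, edgeR adjusted p = 0.000943) and Ahsg, which encodes fetuin-A, by 0.55 (standard error 0.08, edgeR adjusted p = 0.000464). For albumin the log2 difference was -0.07 ± 0.09 (SE, edgeR adjusted p = 0.614), and for transthyretin (Ttr) it was 0.15 ± 0.10 (SE, edgeR adjusted p = 0.272).

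**Figure D3:**
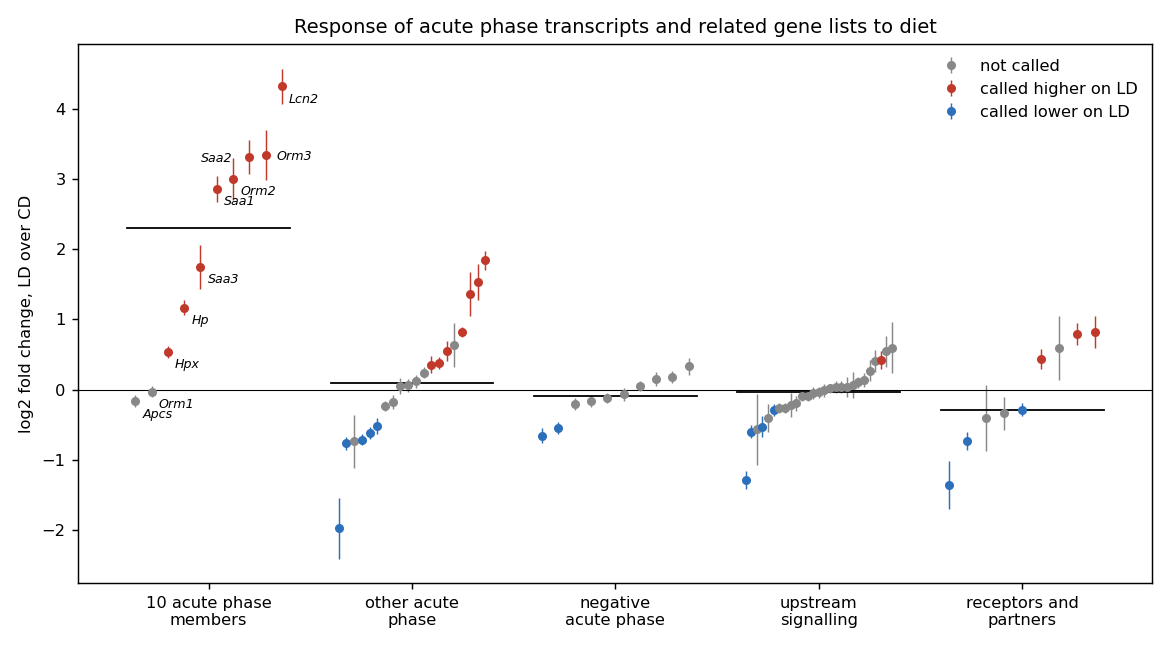
Log2 fold change of LD over CD with its standard error (5 mice per diet, edgeR) for the tested genes of the 10 members and of 4 related lists, sorted within each list; black bars are list medians and colour gives the call. The member median is 2.30, whereas the other lists have medians between -0.29 and 0.09.

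Of 31 genes of the pathway that drives the acute phase response, 27 could be tested, of which 1 rose, 4 fell and 22 were not called (median log2 fold change -0.04), against 13.8% higher and 11.1% lower over all rows tested. Of 7 ligand genes, 4 had too few counts to be tested: summed counts on LD and on CD were 12 and 9 for Il6, 14 and 9 for Osm, 28 and 4 for Lif, and 0 and 0 for Il22. Il1a, Il1b and Tnf were tested and not called. Of 8 receptor genes, 3 fell and 0 rose: Lifr, the leukaemia inhibitory factor receptor, fell by 1.29 on the log2 scale (standard error 0.12, edgeR adjusted p = 2.09e-05), and the interleukin-1 receptor subunits Il1rap by 0.60 (standard error 0.09, edgeR adjusted p = 0.000419) and Il1r1 by 0.53 (standard error 0.15, edgeR adjusted p = 0.0202). The Il1r1 call was lost without LD mouse 4 and with limma on log2(TPM + 1). For Stat3 itself the log2 difference was 0.02 ± 0.06 (SE, edgeR adjusted p = 0.839), and Socs3, the feedback inhibitor that STAT3 induces, it was 0.04 ± 0.14 (SE, edgeR adjusted p = 0.851). Nfkbiz, a co-regulator of NF-kB, was the gene that rose (0.42, standard error 0.13, edgeR adjusted p = 0.0280), a call that was lost when LD mouse 2, CD mouse 1, CD mouse 3 or CD mouse 5 was left out.

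Of the 6 transcription factor genes, Nr3c1, the glucocorticoid receptor, was called lower (log2 fold change -0.29, standard error 0.09, edgeR adjusted p = 0.0237), a call lost without LD mouse 3 or 4 or CD mouse 3 or 4 and with limma on log2(TPM + 1), and 5 were not called. Both factors profiled by ChIP-seq were lower on LD by just under the 1.2-fold threshold: the log2 difference was -0.26 ± 0.08 for Cebpa (SE, edgeR adjusted p = 0.0202) and -0.26 ± 0.07 for Hnf4a (SE, edgeR adjusted p = 0.0176). Cebpa was called lower with DESeq2, with its size factors, and without LD mouse 1, 3 or 4 or CD mouse 3 or 4, and Hnf4a without LD mouse 4 or CD mouse 1. Among 10 receptors and partners of the encoded proteins, 9 were tested, 3 rose (Hmox1, Tlr2 and Tlr4) and 3 fell (Lrp1, Lrp2 and Scarb1), where 13.8% of all rows were called higher and 11.1% lower. The median log2 fold change of this list was -0.29, and 1 gene (Tlr2) was called higher when CD mouse 3, 4 or 5 was left out. The Scarb1 call was lost without LD mouse 1, 2, 3 or 5 or without CD mouse 3 or 4, and the Tlr4 call also without CD mouse 1 or LD mouse 1, 2, 3 or 5. Lrp1, the receptor that takes up the complex of Hpx and haem, fell by 0.73 on the log2 scale (standard error 0.13, edgeR adjusted p = 0.00114) and Lrp2, a receptor that binds Lcn2, by 1.36 (standard error 0.34, edgeR adjusted p = 0.0133). Tlr2, a receptor reported to bind serum amyloid A, rose by 0.79 (standard error 0.16, edgeR adjusted p = 0.00257) and Hmox1, the enzyme that breaks down haem, by 0.82 (standard error 0.23, edgeR adjusted p = 0.0253). Cd163, the receptor for haemoglobin bound to Hp, was not called (-0.40, standard error 0.47, edgeR adjusted p = 0.570).

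H3K27ac near the members was compared as the share of each gene with 20 kb on either side that the peaks of a sample covered. The peak lists hold positions and no heights, and the LD samples were covered more in total (149.8 to 160.4 Mb) than the CD samples (139.7 to 145.4 Mb). Coverage was above all CD samples in all LD samples for 4 of the 10 members, against 21.6% of all genes tested, and below them for 1 member, against 5.83%. Those above were Saa3 and the 3 Orm genes, whose windows overlap. Orm2 was covered to 42.0%, 38.3% and 44.7% in the LD samples and to 30.5%, 31.6% and 30.7% in the CD samples (exact permutation test, two-sided p = 0.1, the smallest that 3 against 3 samples allow). Saa3 was covered to 21.5%, 17.4% and 18.3% on LD and to 13.3%, 13.7% and 16.5% on CD, with the same exact p = 0.1. Orm1 was covered to 46.8%, 40.8% and 49.1% on LD and to 35.3%, 37.6% and 37.1% on CD, and the Orm3 window gave nearly the same values because it holds most of the same sequence.

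Hp was the member with less coverage on LD, with 50.9%, 47.7% and 46.8% on LD and 52.2%, 53.1% and 52.7% on CD, although its transcript rose (exact permutation test, two-sided p = 0.1). In a window of 10 kb on either side the Hp samples overlapped, with a difference of means of -4.99 percentage points in place of -4.24, and with 50 kb it was -1.86. The samples of the diets overlapped for Lcn2, with 19.6%, 22.4% and 18.3% on LD and 16.4%, 20.2% and 15.5% on CD (exact permutation test, p = 0.3). The difference of means for Lcn2 was 2.78 percentage points, against 5.86 with 10 kb and 2.07 with 50 kb on either side. For Saa1, Saa2, Hpx and Apcs the samples overlapped too, with exact p between 0.4 and 0.9, and the largest difference of means among these was 3.12 percentage points (Saa2). That difference was -2.37 points with 10 kb and 6.96 points with 50 kb on either side, and the one of Saa1 went from 0.47 to -3.75 and 5.85 points.

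**Figure D4:**
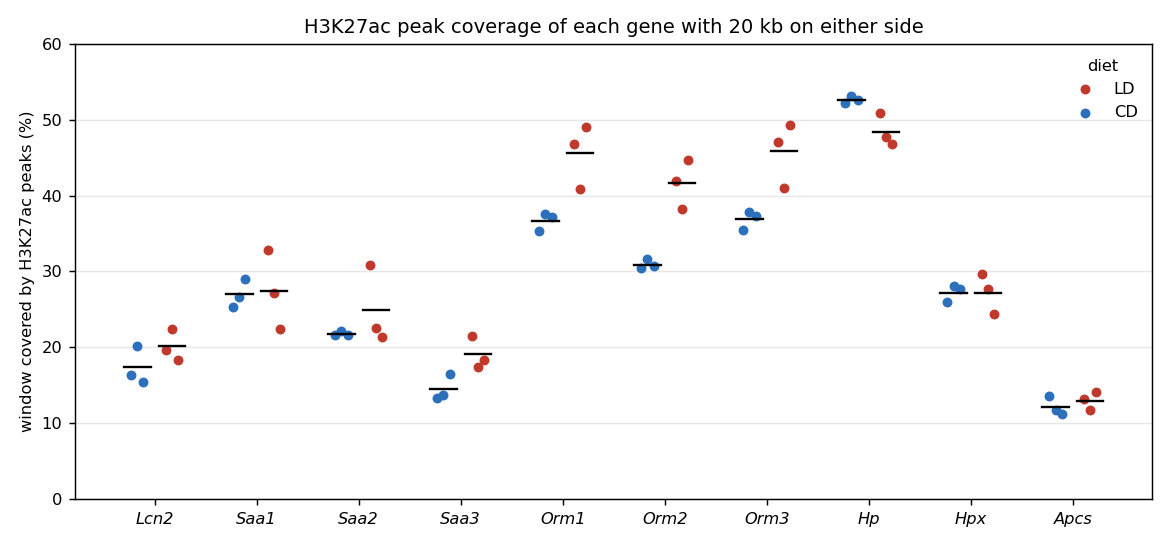
Share of each gene with 20 kb on either side that H3K27ac peaks cover, in percent, for 3 LD and 3 CD samples per gene; points are samples and bars are diet means. The LD samples lie above the CD samples for Saa3, Orm1, Orm2 and Orm3 and below them for Hp.

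Merging the peaks of all samples, and keeping those found in 2 samples or more, gave 31 H3K27ac loci in the windows, of which 21 were present in all 6 samples (59.5% of loci over the genome). None was present in every sample of one diet and absent from the other, against 3.13% of loci for LD and 0.757% for CD. Loci of LD alone numbered 3 without LD sample 2 and 1 without LD sample 3 or CD sample 1, and 1 locus was of CD alone without CD sample 2. Within the Orm cluster the difference lay on the side of Orm3 and Orm2. The locus at chr4:63014400-63024599, which spans Orm3 and the start of Orm2, was covered over 9, 8.4 and 10.2 kb in the LD samples and over 5.4, 6 and 6 kb in the CD samples. The locus at chr4:63001800-63011599, which spans Orm1, was covered over 7.8, 8.4 and 8.8 kb on LD and over 8.4, 9 and 8.4 kb on CD, so that the diets overlapped there. At the Lcn2 start, the locus chr2:32242000-32245199 was covered over 2.6, 2.6 and 3 kb on LD and over 2, 2.4 and 1.4 kb on CD.

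Hnf4α and C/EBPα peaks were merged into loci, with peak height given as the normalised tag count deposited for each sample. The Hnf4α CD samples differed from each other, with 35143 and 47992 peaks and median heights of 15.2 and 21.5, whereas the LD samples had 46363 and 44247 peaks and medians of 19.2 and 19.5. With 2 samples against 2, no test was made. Of the 30 Hnf4α loci near the members, 19 had a peak in every sample (50.9% over the genome), 1 in the LD samples only (7.49%) and 2 in the CD samples only (3.96%). With 1 sample left out, the LD-only count was 4 (without LD sample 1), 6 (LD sample 2), 2 (CD sample 1) or 3 (CD sample 2), and the CD-only count was 6 (LD sample 1), 2 (LD sample 2), 4 (CD sample 1) or 4 (CD sample 2). Heights in both LD samples were above both CD samples at 8 loci, against 22.2% of all loci, and below them at 2, against 6.49%. With heights divided by the median of each sample these counts were 9 (26.8% of all loci) and 3 (13.1%). A sample without a peak was given a height of 0 in these counts. The 2 loci below were thus the 2 of CD alone. The 8 above include the 1 of LD alone and others without a peak in 1 CD sample.

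Of the 29 C/EBPα loci, 19 had a peak in every sample (41.8% over the genome), 8 in the LD samples only (15.3%) and 1 in the CD samples only (5.22%), a count that was 3 without CD sample 1 and 4 without CD sample 2. Both LD heights were above both CD heights at 9 loci (23.3% over the genome) and below them at 13 (29.6%). With heights divided by the median of each sample they were 10 (23.2%) and 17 (39.7%). A sample without a peak was given a height of 0 in these counts. The 9 loci above were thus the 8 of LD alone and chr1:174833511-174833939, which had no peak in CD sample 2. The 13 below include the 1 of CD alone. Heights of C/EBPα peaks present in every sample were lower on LD over the genome too, with a median log2 ratio of -0.43 over 13813 loci. The tags were counted in peaks of 1 width per sample, which was 236 and 250 bp on LD and 314 and 286 bp on CD, and the part of this difference in the heights was not tested. A locus within 500 bp of the start was found for 6 members with Hnf4α (34.9% of genes tested) and for 7 members with C/EBPα (23.2%). Lcn2, Orm1, Orm2, Hp and Hpx had both, Saa1 and Saa2 had C/EBPα, Apcs had Hnf4α, and Saa3 and Orm3 had neither.

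At the start of Lcn2, Hnf4α heights were apart between the diets and C/EBPα heights overlapped. The Hnf4α locus at chr2:32243256-32243566, centred 152 bp before the start, had heights of 33.8 and 24.2 on LD and 7.75 and 14.5 on CD, so that the LD mean was 2.61 times the CD mean. Divided by the median height of each sample these became 1.76 and 1.24 on LD and 0.510 and 0.674 on CD, and the diets remained apart. The C/EBPα locus at chr2:32243276-32243590 had heights of 58 and 58.5 on LD and 70 and 42 on CD. The only C/EBPα locus of one diet near Lcn2 lay in an exon of Ptges2 (chr2:32251573-32251827), with heights of 14 and 9.5 on LD and no peak on CD.

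In the Orm cluster, C/EBPα heights were lower on LD at the starts of both Orm1 and Orm2, although Orm1 was not called and Orm2 rose. Over the genome, C/EBPα loci with a peak in every sample were lower on LD as well (median log2 ratio -0.43). The locus at the Orm1 start (chr4:63005330-63005644), the tallest C/EBPα locus near any member, had heights of 147 and 121.5 on LD and 279.5 and 195.5 on CD. The locus at the Orm2 start (chr4:63023210-63023524) had heights of 76 and 74 on LD and 174 and 113.5 on CD. Both hold the C/EBP letters shown in capitals above. C/EBPα peaks found on LD alone lay in an intron of Orm1 (chr4:63007792-63008043, heights 24.5 and 27.5), before Orm3 (chr4:63015321-63015572, 11.5 and 15) and after Orm2 (chr4:63027261-63027522, 34 and 19.5). The tallest C/EBPα locus nearest Orm3, in its intron (chr4:63018036-63018350), had heights of 27 and 17 on LD and 34.5 and 31 on CD.

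Hnf4α in the Orm cluster was highest on CD and LD at different places. The tallest locus by mean height, chr4:62999777-63000023, had heights of 62.8 and 48.2 on LD and 47 and 83 on CD, which overlap. The locus 1929 bp before the Orm1 start, chr4:63003547-63003776, had heights of 86.8 and 54.8 on LD and 23.5 and 35.2 on CD. At the Orm2 start (chr4:63023210-63023481) the heights overlapped, with 54.5 and 34.5 on LD and 18 and 40.2 on CD. Hnf4α loci of one diet were found at 2 places: chr4:63015344-63015567 before Orm3 had heights of 11.5 and 10.2 on LD alone, and chr4:63006522-63006759 in an intron of Orm1 had 12.5 and 24 on CD alone. The tallest nearest Orm3 (chr4:63018088-63018377) had 15.5 and no peak on LD and 10.2 and 11.2 on CD.

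At the tallest loci near the Saa genes neither factor was higher on LD. The tallest Hnf4α locus near any member, chr7:53994015-53994241 between Saa4 and Saa1, had heights of 181.5 and 135.8 on LD and 142.5 and 240.8 on CD, which overlap. The tallest C/EBPα locus near Saa1 and Saa2, chr7:54001187-54001540, had heights of 100 and 119.5 on LD and 265.5 and 161 on CD, with both LD samples below. At the Saa1 start the C/EBPα heights were 32 and 36.5 on LD and 56 and 37.5 on CD, and at the Saa2 start 21 and 22.5 on LD and 26 and 14 on CD. Near Saa3, the locus chr7:53974975-53975222 had Hnf4α heights of 109.8 and 93 on LD and 81 and 166 on CD, and C/EBPα there (chr7:53974934-53975248) was lower on LD, with 98.5 and 101 against 213.5 and 125.5. The Hnf4α locus of CD alone near Saa3 (chr7:53965784-53966111) lay at the start of Saal1 and had heights of 4.25 and 9. The only Hnf4α locus nearest to Saa2, in an intron of Hps5 (chr7:54028871-54029298), had heights of 16 and 8.75 on LD and 4.25 and no peak on CD.

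**Figure D5:**
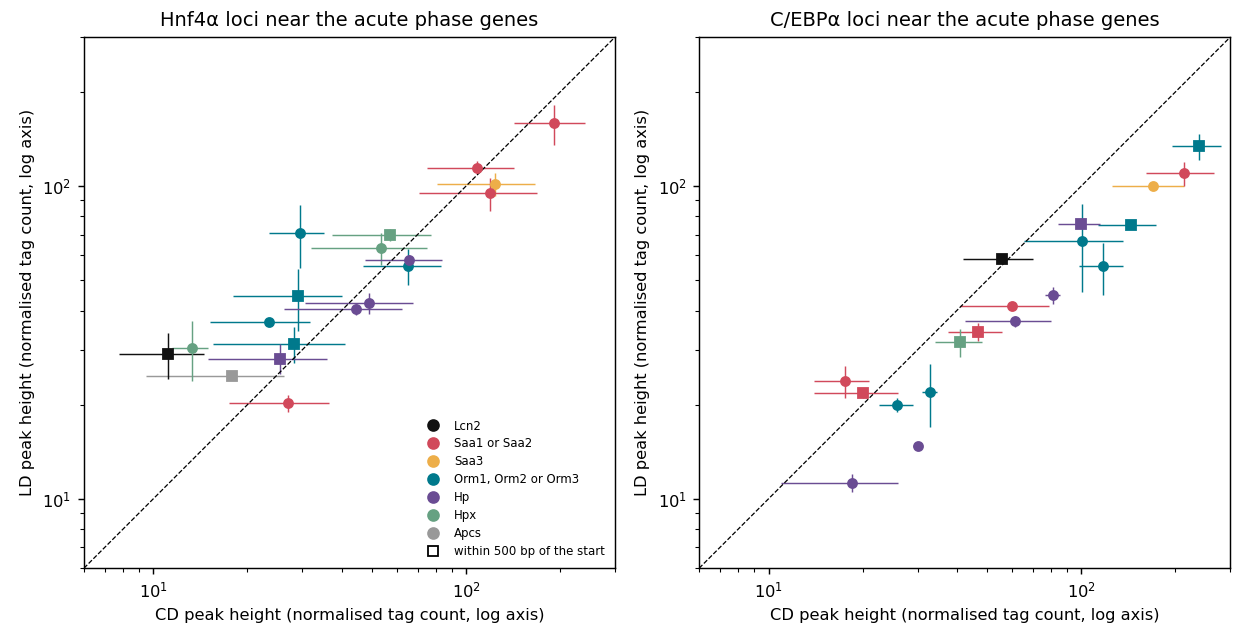
Peak height on LD against CD (normalised tag count, log axes) at the 19 Hnf4α and 19 C/EBPα loci near the members with a peak in all 4 samples; symbols are means of 2 samples, lines run between the samples, colour gives the nearest member and squares mark loci within 500 bp of its start. The Lcn2 start lies above the line of equality for Hnf4α and on it for C/EBPα, and most C/EBPα loci lie below the line.

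Near Hp, C/EBPα heights were below both CD samples in both LD samples at 4 of 5 loci (29.6% of all loci over the genome), including the one at the start (chr8:112103000-112103314, 74 and 77 on LD, 114.5 and 84.5 on CD). C/EBPα loci with a peak in every sample had a median log2 ratio of LD over CD of -0.43 over the genome. The tallest Hnf4α locus in the Hp window, chr8:112089509-112089767 at the start of Dhx38, had heights of 60 and 55.8 on LD and 47.5 and 84 on CD, and at the Hp start itself they were 31.2 and 25 on LD and 15 and 36 on CD. Near Hpx, C/EBPα peaks of LD alone lay at chr7:112739189-112739450 (8.5 and 10.5), chr7:112749411-112749676 (25 and 26) and chr7:112764331-112764584 (12.5 and 10.5), and 1 of CD alone at chr7:112751630-112751960 (23.5 and 15). The Hnf4α and C/EBPα loci at the Hpx start overlapped between diets, with Hnf4α heights of 73 and 66.8 on LD and 37.2 and 77 on CD, and C/EBPα heights of 28.5 and 35 on LD and 48 and 34 on CD. Divided by the median height of each sample, the C/EBPα heights were 2.48 and 2.80 on LD and 3.69 and 4 on CD, and so no longer overlapped. Hnf4α in the Trim3 intron beside the last of the LD peaks (chr7:112764323-112764603) was higher on LD, with 23.8 and 37 against 11.5 and 15.

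Near Apcs both factors were higher on LD at a locus upstream of the start. Its Hnf4α heights (chr1:174833551-174833781) were 27.5 and 39.5 on LD against no peak and 10.2 on CD, and its C/EBPα heights (chr1:174833511-174833939) were 18.5 and 32 on LD against 8 and no peak on CD. A weak C/EBPα peak of LD alone lay at chr1:174825667-174825925, with heights of 8 and 9.5. At the Apcs start the Hnf4α heights overlapped, with 25 and 24.5 on LD and 9.5 and 26.2 on CD. Taller peaks on LD were thus found both near genes that rose, such as Lcn2, and near Apcs, which was not called.

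Fewer promoter contacts of the members were listed on LD. The lists hold interactions with a CHiCAGO score of at least 5 within 1 Mb, 151203 for LD and 149798 for CD, without replicates. Fragments that carry the start of 9 members were listed, and the fragment of Orm2 was not listed. The 9 fragments had 113 interactions on LD and 176 on CD, of which 99 were shared (over all fragments, 53.8% of listed interactions were in both lists), and 8 of the 9 had fewer on LD, 0 had more and 1 had the same number. Of all promoter fragments listed, 38.1% had fewer interactions on LD and 44.2% had more. Of the 7 with at least 5 interactions over the diets, 3 (Saa1, Orm1 and Hpx) had at least 2 times as many on CD and 0 at least 2 times as many on LD. Over all promoter fragments these shares were 7.6% and 10.1%. Among the 99 shared interactions the score was higher on CD in 71 and on LD in 27, against 52.4% and 47.4% of shared interactions over all fragments.

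Saa1 had 1 interaction on LD and 9 on CD, with none shared, although the end on LD directly adjoins one on CD. The best on LD scored 5.42 (chr7:54018550-54020382) and the best on CD 8.46 (chr7:54088834-54095510), an end with peaks of H3K27ac, Hnf4α and C/EBPα in every sample of both diets. Saa2 had 6 on LD, all of them shared, and 11 on CD, and its best on both was the contact with the Saa3 fragment, which scored 16.62 on LD and 20.61 on CD and is counted at both fragments. The Saa3 start shares its fragment with Saal1, and this fragment had 61 interactions on LD and 63 on CD, with best scores of 25.07 on LD (chr7:54023349-54027967) and 29.35 on CD (chr7:54028004-54028482). Those ends lie beyond Saa2, where H3K27ac peaks were found in 3 and 2 of the 3 LD samples and in 0 CD samples, while both were contacted on both diets. The 3 samples at the first end come from separate loci at its edges, neither found in every LD sample. These were chr7:54022400-54023599 (LD samples 1 and 2) and chr7:54027000-54029799 (LD samples 1 and 3).

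Orm1 had 3 interactions on LD and 8 on CD, the best on both being with the fragment of Ambp, which scored 15.85 on LD and 19.89 on CD. Ambp encodes alpha-1-microglobulin, another plasma protein of the liver. Orm3 had 3 on LD and 5 on CD, with a best score of 8.02 on LD and 10.07 on CD at the same fragment (chr4:62818582-62819537). Hpx had 10 on LD and 22 on CD, with best scores of 8.99 at the fragment of Smpd1 on LD and 13.12 at chr7:112701483-112701793 on CD. Apcs had 28 on LD and 55 on CD, with best scores of 16.56 (chr1:174578796-174579584) and 22.23 (chr1:174581451-174584607).

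Hp had 0 listed interactions on LD and 2 on CD, of which the better scored 6.77 (chr8:112499589-112505401), although its transcript rose 2.25 times. Lcn2, with the largest rise, had a single interaction on both diets, with a fragment captured for Fpgs 316.7 kb away, scoring 6.43 on LD and 5.67 on CD. Saa1, Saa2, Saa3, Orm3, Hp and Hpx thus had more transcript and fewer listed contacts on LD, without replicates to set an error on the contacts. For Saa3 the numbers were close, 61 on LD and 63 on CD. Orm1 (3 on LD, 8 on CD) and Apcs (28 and 55), whose transcripts were not called, had fewer listed contacts on LD as well. With a score of at least 10 required, 19 interactions were left on LD and 33 on CD, of which 17 were in both lists. With ends within 5 kb of each other counted as shared, 108 of the 113 on LD were shared in place of 99.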

How the data were processed

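RNA-seq read pairs of 76 bases had been mapped by the authors to mm9 with STAR 2.5 and counted by strand per RefSeq gene with featureCounts 1.5.0-p1, and the deposited counts are not normalised. The deposited TPM values were scaled by the authors to transcript length and library total, with gene lengths not given in the sources used here. One CD column of the TPM table carries a replicate number, 13, that no sample has, and was used as a CD replicate without a number. Columns of that table with the authors' own fold changes, adjusted p-values and calls were not used. ChIP-seq reads had been aligned with Bowtie 0.12.8 and duplicates removed with Picard 1.110. H3K27ac peaks were called by the authors per sample with SICER (window 200 bp, gap 200 bp, FDR 0.001). Hnf4α and C/EBPα peaks were called per sample with HOMER, whose deposited normalized tag counts are a signal scaled to a common library size. PCHi-C interactions (HindIII fragments, HiCUP) carry the deposited CHiCAGO score of the pooled replicates of a diet. Topological domain lists were not used.

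Counts were tested with edgeR 4.0.16 (TMM, filterByExpr, robust quasi-likelihood fit, Benjamini-Hochberg over 13494 rows) in R 4.3.3, calling genes at an adjusted p below 0.05 and a fold change above 1.2. Alternatives used DESeq2 1.42.0 and limma 3.58.1 on log2(TPM + 1) and log2(TPM + 0.1), DESeq2 size factors, other filters on low counts, a test against the fold threshold, the replicate number as a block and summed counts of near copies, and left out each replicate in turn. Other windows, overlaps, peak heights and a score of 10 were tried for the other assays, and heights divided by the median of each sample were added after seeing the data. The fit was tested on simulated data. CPM are counts scaled to the TMM library size. The study describes the RNA-seq and ChIP-seq replicates as separate animals. ChIP-seq loci are merged overlapping peaks present in at least 2 samples. Coordinates are as deposited on mm9, and gene features are from GENCODE vM1 on NCBIM37. Heights are compared without a test. The members and all gene lists were chosen with earlier results of these data known. Every member is named. Loci of 1 diet only, the tallest nearest each member and the best scoring interactions of each fragment were to be named, and other loci named, at gene starts or higher on LD, were chosen after their values were seen. In the other lists, up to 4 called genes with the smallest adjusted p were to be named with their statistics, and further genes named were chosen after their values were seen. The 3 rows most like each member between mice are named, of which 1 is not reported here.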

Additional observations from a re-analysis of the deposited data

Results flagged for a closer look

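Among the 20 groups of 5 mice (10 members, 2 diets), 2 held a mouse far from the others by Dixon's criterion, and chance alone marks about 1 in 20. Saa1 in LD mouse 1 was 115.138 CPM, against 93.5 CPM in the next highest LD mouse. Apcs in LD mouse 1 was 84.1007 CPM, against 96.2 CPM in the next lowest LD mouse. The cause was not tested.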

How the results depend on the processing

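The 8 members were called higher and 0 lower under each of 18 alternatives for RNA-seq. With near copies summed 6 members were called higher, since the summed Orm counts were not. The single call of the summed Saa1 and Saa2 counts stands for both genes in that number. The log2 fold change of Orm1, not called, changed sign with limma on log2(TPM + 1) (0.053926) and on log2(TPM + 0.1) (0.0539657), and ranged from -0.0643441 to 0.0307709 as each mouse was left out (0.00160431 without LD replicate 1). Upstream genes called higher numbered 2 with DESeq2, 2 with no filter on low counts, 0 when tested against a 1.2-fold change, and 0 to 3 as each mouse was left out. Upstream genes called lower numbered 2 with limma on log2(TPM + 1), 2 on log2(TPM + 0.1), 5 with DESeq2 or its size factors (Cebpa was added), 3 with the replicate block, 4 to 6 as each mouse was left out, and 2 when tested against a 1.2-fold change, under which 4 other acute phase genes and 1 receptor or partner were called higher. As each mouse was left out, 1 to 3 receptors or partners were called higher, with 1 without CD replicate 3, 4 or 5. Of the negative acute phase genes, 1 was called higher with DESeq2, 1 with either limma fit, 1 with the replicate block, and 0 to 1 as each mouse was left out (1 without LD replicate 5). The causes were not tested. The test against a 1.2-fold change called 919 rows higher and 459 lower.

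The labels do not say whether LD and CD mice of the same number were linked. Their deviations correlated at -0.08 to 0.19 over 5 pairs, and 1 library correlated best with its own number. With the replicate number as a block, 1818 rows were called higher and 1355 lower, and 8 members higher. The samples of the other assays were compared without pairing their replicate numbers.

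H3K27ac coverage was below CD for 0 members with a 10 kb window. H3K27ac loci of LD alone numbered 4, and of CD alone 1, when 2 samples of a diet sufficed, and 0 to 3 and 0 to 1 as each sample was left out. Hnf4α loci of LD alone numbered 3 among peaks at or above the median height and 2 when an overlap of 50% was required, and those of CD alone 0 and 1; leaving out each sample gave 2 to 6 for either diet. C/EBPα loci of LD alone numbered 5 among peaks at or above the median height, and those of CD alone 1 to 4 as each sample was left out. With a score of at least 10, the interactions numbered 19 on LD, 33 on CD and 17 in both. The peak and interaction lists hold only features past the callers' thresholds, so that an absent peak or contact is one not listed.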
